A study of Mus musculus with 10 samples.

Results

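The genes described here are 32 markers of the fibroblasts, pericytes and smooth muscle cells of the heart, followed through RNA sequencing libraries of isolated cardiac myocytes. The members are a list of gene names, drawn up with earlier results of these data known, and all 32 were found among the 45882 gene IDs of the files. A mean level of at least 1 FPKM (fragments per kilobase of transcript and sequencing yield, which sets genes of different length on 1 scale) was needed for testing, which 27 of the 32 members and 11358 gene IDs in all reached. Tcf21, Thy1, Fap, Cthrc1 and Cnn1 did not reach it. The libraries came from myocytes of the left ventricle of adult C57BL/6 mice, 1 mouse for each library. They fell into CTCF knockout mice (4 libraries), mice after TAC (transverse aortic constriction, an operation that tightens the aortic arch and so raises the pressure against which the ventricle pumps; 3 libraries) and control mice (3 libraries). CTCF is a DNA-binding protein that helps to form chromatin loops. The cell type in which CTCF was deleted, the time after deletion or surgery, the genotype of the TAC and control mice beyond these names, and the exact age are not given in the sources used here.

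Cardiac fibroblasts make and remodel the collagen and proteoglycan matrix between myocytes, and on injury or pressure load they are known to switch on a set of matrix and signalling genes. Pericytes wrap capillaries and smooth muscle cells wrap arteries, and both carry receptors and contractile proteins that endothelial cells and myocytes use little or not at all. Isolation of myocytes by digestion of the ventricle removes most of these cells but seldom all of them.

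The sequences upstream of the transcription start are printed for members at the centre of the results. They are Bgn and Cspg4, which rose in both knockout and TAC libraries, and Ogn, which fell in both. The start sites of a pair of gelsolin (Gsn) transcripts, of which 1 was called and 1 was not, are also printed. Each is the stretch of 250 bases before the RefSeq start, on the + strand of build GRCm38.p6, written 5′ to 3′. Capitals mark matches, on either strand, to the motifs searched: the GC box GGGCGG, the TATA box TATAAA, the TEAD motif CATTCC, the AP-1 motif TGANTCA, and the CArG box and the CTCF consensus, the last 2 given by name only.
Bgn, chrX:73483351-73483600: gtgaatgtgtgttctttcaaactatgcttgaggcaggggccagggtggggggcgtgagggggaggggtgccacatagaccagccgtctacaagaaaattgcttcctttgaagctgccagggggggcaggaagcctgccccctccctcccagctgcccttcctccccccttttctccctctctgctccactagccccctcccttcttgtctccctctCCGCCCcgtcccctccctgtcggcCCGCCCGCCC
Cspg4, chr9:56864854-56865103: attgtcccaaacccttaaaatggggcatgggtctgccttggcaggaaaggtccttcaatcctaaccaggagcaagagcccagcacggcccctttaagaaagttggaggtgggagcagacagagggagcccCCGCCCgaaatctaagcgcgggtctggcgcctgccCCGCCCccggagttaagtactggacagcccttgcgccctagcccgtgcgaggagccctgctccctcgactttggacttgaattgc
Ogn, chr13:49607765-49608014: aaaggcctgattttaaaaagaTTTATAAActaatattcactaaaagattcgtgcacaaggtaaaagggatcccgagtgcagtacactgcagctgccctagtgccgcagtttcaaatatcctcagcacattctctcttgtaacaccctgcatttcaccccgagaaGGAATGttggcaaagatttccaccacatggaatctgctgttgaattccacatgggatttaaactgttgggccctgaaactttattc
Gsn, before the start of Gsn-205, chr2:35256109-35256358: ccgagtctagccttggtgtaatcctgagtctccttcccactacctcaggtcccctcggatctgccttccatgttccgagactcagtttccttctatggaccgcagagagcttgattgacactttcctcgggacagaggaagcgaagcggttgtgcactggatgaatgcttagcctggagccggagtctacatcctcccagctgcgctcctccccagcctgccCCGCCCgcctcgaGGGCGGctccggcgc
Gsn, before the start of Gsn-201, chr2:35282130-35282379: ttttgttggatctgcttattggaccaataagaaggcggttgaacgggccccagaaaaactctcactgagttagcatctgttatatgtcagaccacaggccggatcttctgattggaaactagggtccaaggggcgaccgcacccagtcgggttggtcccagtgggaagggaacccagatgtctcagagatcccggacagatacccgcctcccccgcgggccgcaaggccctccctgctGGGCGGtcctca
The windows of Bgn and Cspg4 and both printed windows of Gsn held GC boxes. A further Gsn window, chr2:35266494-35266743, is not printed and held a GC box 60 bases before its start. The Ogn window held none, and had overlapping TATA box matches on the 2 strands in the run that begins 229 bases before the start, and a TEAD match on the opposite strand 86 bases before it. RefSeq windows were matched for 22 of the 32 members (25 windows). Smoc2, Lum, Fap, Thy1, Cthrc1, Meox1, Tagln, Pdgfrb, Dcn and Mgp were not searched, so the counts do not cover them. A GC box was in 10 of these 25, against 32.7% of all 32851 mouse windows of the same length. The TATA box was in 3 of 25 against 12.4%, the TEAD motif in 2 of 25 against 12.6%, and the AP-1 motif in 1 of 25 (Mylk) against 6.75%. The CTCF consensus was in 1 of 25 (S100a6) against 0.508%, and the CArG box in 0 of 25 against 1.47%. A match is a string of letters and not a measured binding site.

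The libraries carried the marks of myocytes: 13 cardiac myocyte genes summed to between 35608 and 47972 FPKM. Ctcf itself had 2.90, 4.01, 2.6 and 4.42 FPKM in knockout, 7.32, 5.70 and 5.22 FPKM in TAC and 8.81, 8.34 and 6.80 FPKM in control libraries. It was lower in all 4 knockout libraries than in all controls (log2 fold change -1.02, adjusted p = 0.00136 by limma). The files give no read counts, so the depth is unknown. Cufflinks also lists a coverage, and its ratio to FPKM, which follows depth, lay between 3.90 and 6.09 over the libraries. Albumin (Alb), a liver transcript, had 0 to 0.0219 FPKM in knockout, 0 to 0.0516 FPKM in TAC and 3.49 to 4.15 FPKM in control libraries, and the part of this difference between the control libraries and all others in the results below was not tested. By sex-linked transcripts, knockout replicate 4, TAC replicates 1 and 3 and control replicate 2 were male.

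Before single genes, the summed level of all 32 members was set side by side. It was 620, 498, 399 and 493 FPKM in knockout replicates 1 to 4, 478, 540 and 476 FPKM in TAC libraries, and 507, 302 and 467 FPKM in control libraries. The groups overlapped, and the spread inside the knockout and control groups was as wide as any gap between groups. Control replicate 2 was the lowest control for 22 of the 27 tested members, against 31.4% of all tested genes, and knockout replicate 3 was the lowest knockout for 19 of 27, against 22.0%. In bulk libraries fewer cells of a type and less RNA per cell cannot be told apart. Endothelial genes, a further cell type outside the module, summed to 202 to 326 FPKM in knockout, 259 to 311 FPKM in TAC and 195 to 271 FPKM in control libraries, and were also lowest in knockout replicate 3 and control replicate 2 of their groups.

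**Figure D1:**
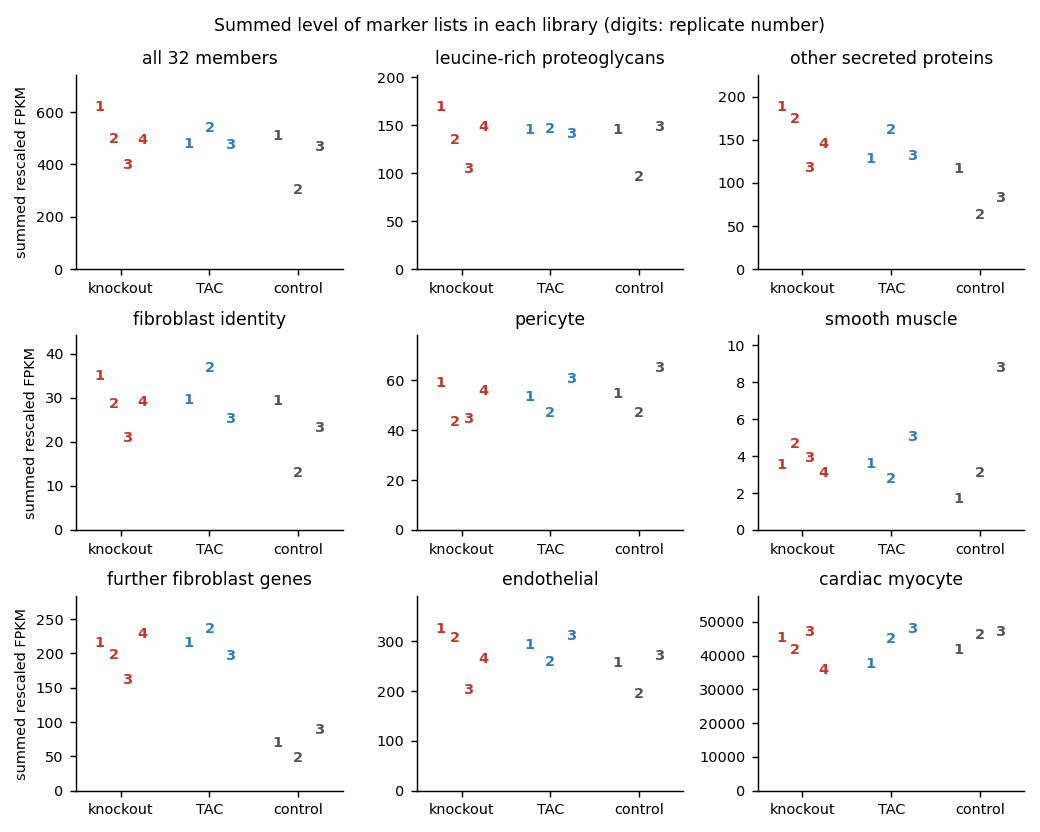
Summed rescaled FPKM of marker lists in each library, with the replicate number as the symbol, by group along the x axis. The 32 members together overlapped between groups, with control replicate 2 at 302 FPKM and knockout replicate 3 at 399 FPKM lowest in their groups, while the further fibroblast genes were at 161 FPKM or more in all knockout and TAC libraries and at 88.1 FPKM or less in all controls.

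In knockout libraries, 9 of the 27 tested members rose and 1 fell relative to control, and 17 did not pass the test. Those that rose were Pi16, Meox1, Bgn, Mgp, Fstl1, Serpinf1, Fbln2, Cspg4 and Mcam, and Ogn fell. The 10 called members are 37.0% of those tested, against 20.8% of all 11358 genes (10.6% higher and 10.2% lower). In TAC libraries 9 members rose, 1 fell and 17 did not pass, again 37.0%, against 15.5% of all genes (8.08% higher and 7.37% lower). There the genes that rose were Pi16, Meox1, Bgn, Fstl1, Serpinf1, Fbln2, S100a6, Cspg4 and Mcam, and Ogn fell. Both comparisons use the same 3 control libraries. The median log2 fold change of the 27 members was 0.24 in knockout and 0.16 in TAC libraries, against -0.01 and 0.00 for all genes tested. Calls were made with limma on log2(FPKM + 1), a scale that understates the change of genes at low levels, at an adjusted p under 0.05.

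**Figure D2:**
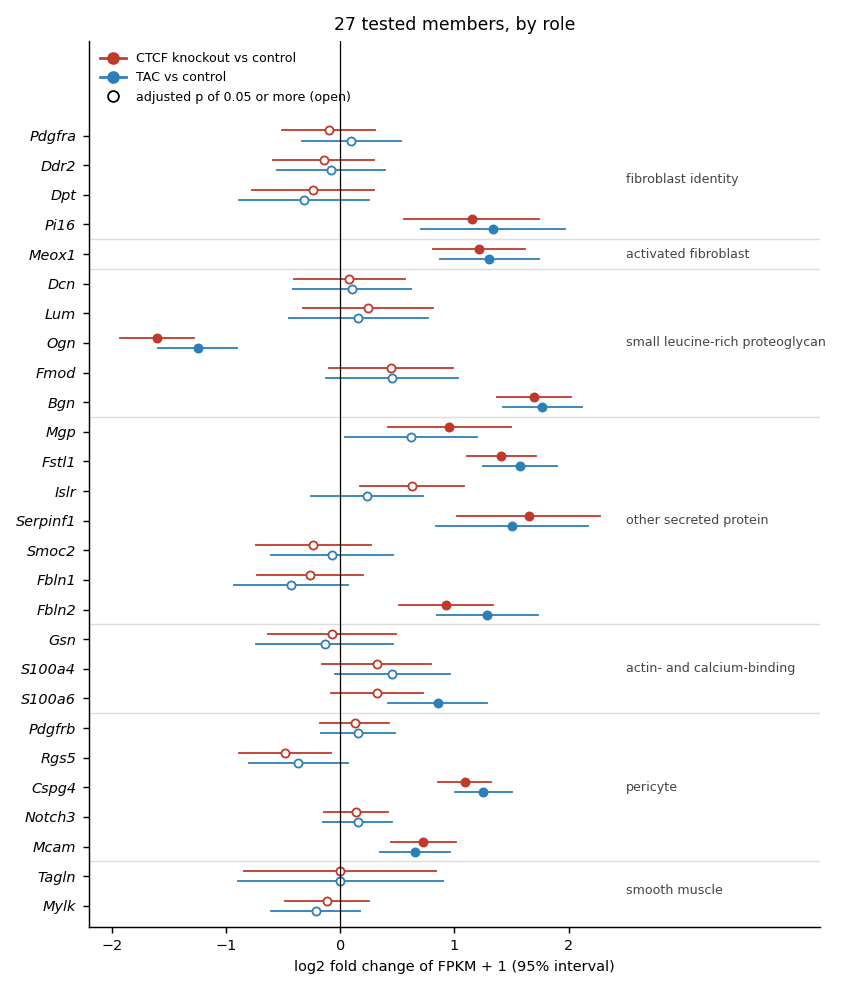
Log2 fold change of FPKM + 1 with its 95% interval for the 27 tested members, grouped by role, in knockout against control (red) and TAC against control (blue). Filled points passed the test. Bgn, Fstl1, Serpinf1, Meox1, Pi16, Fbln2, Cspg4 and Mcam lie to the right of 0 and Ogn to the left in both comparisons, and the fibroblast identity genes Pdgfra, Ddr2 and Dpt have intervals that cover 0.

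The genes by which fibroblasts are usually recognised did not move as a block. Pdgfra, a receptor for platelet-derived growth factor, had 3.17, 3.21, 2.12 and 3.25 FPKM in knockout, 3.23, 4.01 and 3.25 FPKM in TAC and 4.55, 2.07 and 3.31 FPKM in control libraries. The groups overlapped, and the log2 difference was -0.10 (95% interval -0.51 to 0.30) for knockout and 0.10 (-0.34 to 0.53) for TAC. Ddr2, a collagen receptor kinase, and Dpt, a matrix protein, did not pass either (log2 fold changes -0.15 and -0.24 in knockout, -0.08 and -0.32 in TAC). Tcf21, a transcription factor of the fibroblast lineage, stayed at 0.440 to 1.22 FPKM over all 10 libraries and Thy1, a surface glycoprotein, at 0.406 to 1.35 FPKM, both with overlapping groups.

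Pi16, a secreted peptidase inhibitor that marks adventitial fibroblasts in mouse, was the exception in this group. It had 18.5, 16.9, 10.9 and 13.1 FPKM in knockout, 15.5, 21.2 and 14.0 FPKM in TAC and 9.76, 3.43 and 6.19 FPKM in control libraries. All knockout and TAC libraries lay above all controls. The means were 14.8 ± 3.5 FPKM in knockout (SD, n = 4) and 16.9 ± 3.8 FPKM in TAC against 6.46 ± 3.2 FPKM in control (SD, n = 3 each). The log2 fold change was 1.15 in knockout (SE 0.27, adjusted p = 0.0115 by limma) and 1.34 in TAC (SE 0.29, adjusted p = 0.0101). Over all tested members, 10 had every knockout library above every control and 1 every library below, against 14.8% and 16% of all genes, or 30.8% in either direction. For TAC the counts were 9 and 1, against 16% and 15.7%, or 31.6% in either direction.

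Of the 3 genes tied to activated fibroblasts, Meox1, a homeobox transcription factor, was the 1 that was tested, and it rose. It had 3.43, 3.75, 3.21 and 3.65 FPKM in knockout, 3.49, 3.93 and 4.03 FPKM in TAC and 0.381, 1.76 and 0.936 FPKM in control libraries. Its lowest knockout and TAC libraries were well above its highest control. The log2 fold change was 1.21 in knockout (SE 0.18, adjusted p = 0.00102 by limma) and 1.31 in TAC (SE 0.20, adjusted p = 0.00138). Fap, a surface protease of activated fibroblasts, stayed at 0.361 to 0.711 FPKM in knockout, 0.447 to 0.547 FPKM in TAC and 0.251 to 1.08 FPKM in control libraries. Cthrc1, a secreted protein of matrix-producing fibroblasts, was at 0.163 to 0.676 FPKM in knockout and 0.128 to 0.341 FPKM in TAC, and was listed at 0 in control replicates 1 and 3 and at 0.225 FPKM in control replicate 2.

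The 5 small leucine-rich proteoglycans, secreted proteins that bind collagen and growth factors in the matrix, split in 3 ways. Biglycan (Bgn, chrX:73483602-73495933, + strand) had 50.4, 52.3, 35.2 and 46.9 FPKM in knockout, 52.6, 48.9 and 43.3 FPKM in TAC and 14.4, 11.2 and 14.8 FPKM in control libraries. The lowest knockout library was above the highest control. The mean was 3.42 times the control mean in knockout and 3.57 times in TAC, and the log2 fold changes were 1.70 (SE 0.15, adjusted p = 3.64e-05 by limma) and 1.77 (SE 0.16, adjusted p = 6.71e-05). Osteoglycin (Ogn, chr13:49608071-49624500, + strand) went the other way. It had 14.3, 10.2, 11 and 15.8 FPKM in knockout, 16.3, 16.9 and 16.3 FPKM in TAC and 38.2, 36.5 and 47.8 FPKM in control libraries. All knockout and TAC libraries were below all controls, and the log2 fold changes were -1.61 in knockout (SE 0.15, adjusted p = 5e-05 by limma) and -1.25 in TAC (SE 0.16, adjusted p = 0.000499). Ogn lies within Cenpp, a gene on the opposite strand, and the strand setting of the authors' quantification is not given in the sources used here.

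Decorin (Dcn), the most abundant of these proteoglycans, had 90.2, 63.1, 49.8 and 73.9 FPKM in knockout, 65.5, 70.8 and 70.5 FPKM in TAC and 82.7, 43.5 and 72.7 FPKM in control libraries. The groups overlapped, with log2 differences of 0.08 (95% interval -0.41 to 0.56) for knockout and 0.10 (-0.41 to 0.62) for TAC. Its transcripts Dcn-201 and Dcn-202 differed by 0.42 and -0.68 in knockout (adjusted p = 0.350 and 0.0911 by limma). In TAC they differed by 0.29 and -0.19. Dcn-202 passed in knockout only without knockout replicate 1 (adjusted p = 0.0392). Lumican (Lum) did not pass (0.24 in knockout and 0.16 in TAC). Fibromodulin (Fmod) was low, at 0.734 to 1.51 FPKM in knockout, 0.409 to 2.39 FPKM in TAC and 0.492 to 0.701 FPKM in control libraries. All 4 knockout libraries lay above the controls, but the gene did not pass the test (adjusted p = 0.235).

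**Figure D3:**
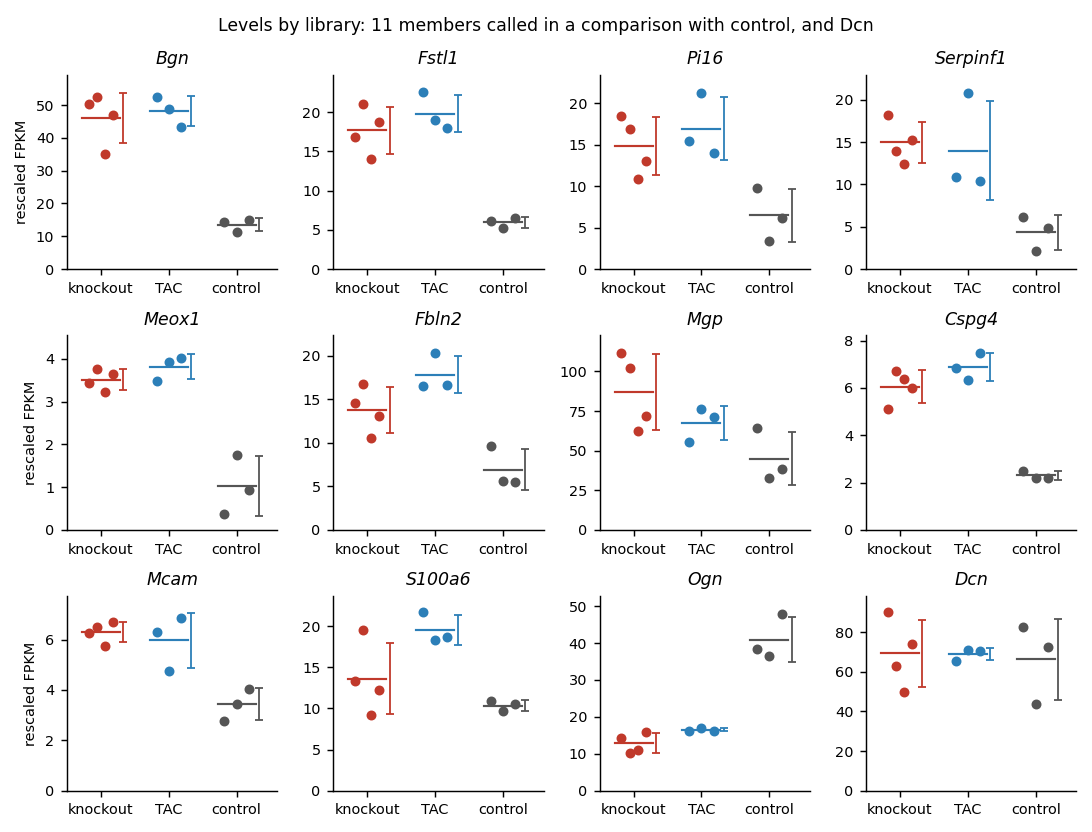
Rescaled FPKM in each library (points) with the group mean (line) and SD (bar) for the 11 members called in a comparison with control and for Dcn, with knockout (n = 4), TAC (n = 3) and control (n = 3) from left to right. Ogn is at 10.2 to 16.9 FPKM in knockout and TAC libraries and at 36.5 FPKM or more in controls, Bgn is at 35.2 FPKM or more in knockout and TAC libraries and at 14.8 FPKM or less in controls, and the Dcn groups overlap.

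The members were also divided by Dcn of the same library, a choice made after the data were seen. The ratio of Bgn to Dcn was 0.558, 0.830, 0.708 and 0.635 in knockout, 0.802, 0.691 and 0.615 in TAC and 0.175, 0.258 and 0.204 in control libraries. The ratio of Ogn to Dcn was 0.159, 0.162, 0.220 and 0.214 in knockout, 0.249, 0.239 and 0.231 in TAC and 0.462, 0.838 and 0.657 in control libraries. Neither set of ratios overlapped with its controls. The ratio of Pdgfra to Dcn was 0.0351 to 0.0509 in knockout, 0.0460 to 0.0567 in TAC and 0.0456 to 0.0550 in control libraries, and overlapped. Of the 26 other tested members, 9 had ratios in knockout above all controls, 2 below (Dpt and Ogn) and 15 overlapping, where 3.5% of all tested genes had such a ratio above and 4.66% below all controls. In TAC 9 were above, 3 below (Dpt, Ogn and Fbln1) and 14 overlapping, where the shares of all tested genes were 4.79% above and 10% below. A ratio shows that members changed unequally, not that Dcn itself was constant. Dcn ranged from 43.5 to 90.2 FPKM over the libraries. Without division, 14.8% of all genes in knockout and 16% in TAC lay above all controls, and 16% and 15.7% below. Division by Dcn adds its spread to genes that do not vary with it. The shares after division therefore do not measure chance for members that do.

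**Figure D4:**
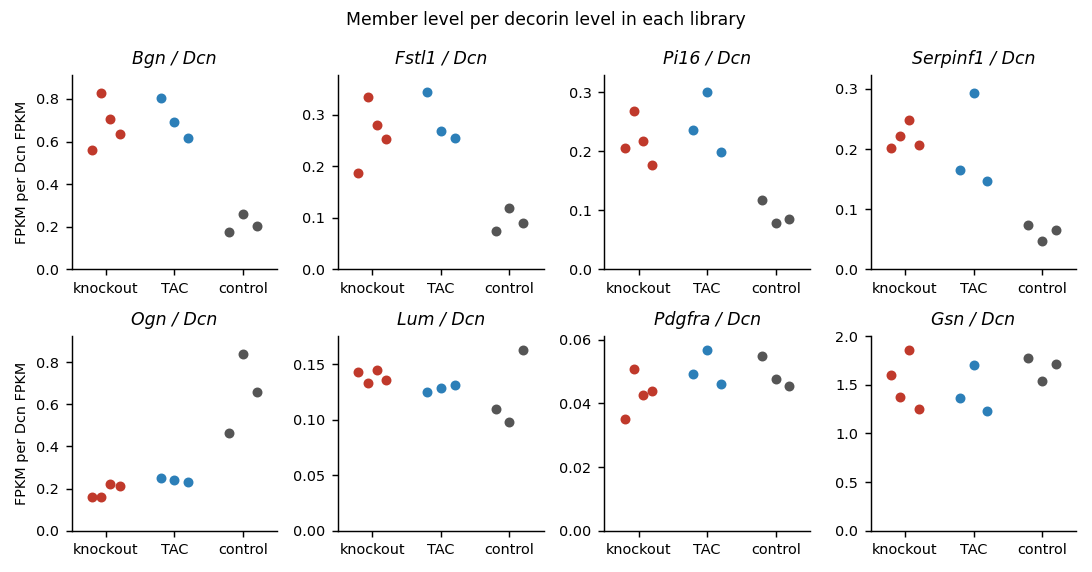
Level of 8 members per Dcn level (FPKM per Dcn FPKM) in each library, with knockout, TAC and control from left to right. Ratios of Bgn, Fstl1, Pi16 and Serpinf1 are higher in all knockout and TAC libraries than in all controls, those of Ogn are lower, and those of Lum, Pdgfra and Gsn overlap.

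Among the 7 other secreted proteins, 4 rose in knockout and 3 in TAC libraries, where 10.6% and 8.08% of all genes rose. Fstl1, a follistatin-like glycoprotein, had 16.8, 21.1, 14.0 and 18.8 FPKM in knockout, 22.5, 19.0 and 17.9 FPKM in TAC and 6.18, 5.18 and 6.56 FPKM in control libraries. The groups did not overlap, and the log2 fold changes were 1.41 (SE 0.14, adjusted p = 7.44e-05 by limma) and 1.58 (SE 0.15, adjusted p = 9.5e-05). Serpinf1, which encodes the anti-angiogenic pigment epithelium-derived factor, had 18.2, 14.0, 12.4 and 15.3 FPKM in knockout, 10.9, 20.8 and 10.3 FPKM in TAC and 6.15, 2.08 and 4.81 FPKM in control libraries. All knockout and TAC libraries were above the controls (log2 fold changes 1.65 and 1.51, SE 0.28 and 0.30, adjusted p = 0.00229 and 0.0075).

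The fibulins, glycoproteins that bridge fibres of the matrix, parted from each other. Fbln2 had 14.6, 16.8, 10.6 and 13.0 FPKM in knockout, 16.6, 20.3 and 16.6 FPKM in TAC and 9.61, 5.58 and 5.50 FPKM in control libraries. It was above all controls in both groups (log2 fold changes 0.92 and 1.29, adjusted p = 0.00544 and 0.00168 by limma). Fbln1 had 7.55 to 13.2 FPKM in knockout, 6.68 to 10.3 FPKM in TAC and 9.09 to 15.4 FPKM in control libraries and did not pass (log2 fold changes -0.26 and -0.43).

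Mgp, matrix Gla protein, an inhibitor of calcification, had 112, 102, 62.1 and 71.9 FPKM in knockout, 55.7, 76.2 and 71.1 FPKM in TAC and 64.2, 32.8 and 38.2 FPKM in control libraries. Knockout replicate 3 fell below control replicate 1, so the groups overlapped. Mgp rose in knockout (log2 fold change 0.95, SE 0.25, adjusted p = 0.0184 by limma). That call was lost without control replicate 2 (adjusted p = 0.0806), control replicate 3 (0.0634) or knockout replicate 2 (0.0534). Testing genes of any mean level also lost it (0.0692). In TAC its log2 fold change was 0.62 and it did not pass (adjusted p = 0.137), but it passed without control replicate 1 (0.90, adjusted p = 0.0317). Islr, an immunoglobulin-like protein of mesenchymal cells, had 5.72, 4.88, 3.88 and 4.63 FPKM in knockout, 3.62, 4.26 and 2.41 FPKM in TAC and 3.74, 1.59 and 3.17 FPKM in control libraries. Its knockout libraries lay above the controls, by a log2 difference of 0.63 (95% interval 0.17 to 1.09) that did not pass (adjusted p = 0.0536) but was called in 6 of the 21 alternative fits in which it was tested. Smoc2, a matricellular protein, did not pass in either comparison (log2 fold changes -0.24 and -0.07).

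Gsn (chr2:35256380-35307892, + strand) encodes gelsolin, a calcium-dependent protein that severs and caps actin filaments, and had the highest level of the module. It had 144, 86.4, 92.6 and 92.8 FPKM in knockout, 89.1, 120 and 86.5 FPKM in TAC and 147, 67.0 and 125 FPKM in control libraries. The groups overlapped and the gene did not pass (log2 fold changes -0.07 and -0.14). Its transcripts behaved unequally. Gsn-201, which starts at the downstream promoter and carries 780 codons in 17 exons, held 79.6% to 94.7% of the Gsn level in each library. Gsn-205 starts upstream, at position 35256380 against 35282380 for Gsn-201, carries 731 codons in 18 exons and shares 15 exons with Gsn-201. Gelsolin is known in mouse and human to be made in a longer secreted form and a shorter cytoplasmic form from separate starts of the same gene.

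Gsn-205 had 12.9, 11.7, 14.4 and 13.4 FPKM in knockout, 4.68, 7.0 and 4.95 FPKM in TAC and 2.84, 3.03 and 1.82 FPKM in control libraries. The 3 groups did not overlap, and the Cufflinks intervals of single libraries, which ran from 10.3 to 15.8 FPKM over the knockout, from 3.89 to 8.09 FPKM over the TAC and from 1.29 to 3.70 FPKM over the control libraries, were apart as well. Its share of the Gsn level was 8.94% to 15.6% in knockout, 5.25% to 5.82% in TAC and 1.46% to 4.52% in control libraries. Among 17685 transcripts tested in 1 fit, the log2 fold change was 2.00 in knockout against control (SE 0.16, adjusted p = 0.000109 by limma) and 0.88 in TAC against control (SE 0.17, adjusted p = 0.0121). Between knockout and TAC it was 1.12 (SE 0.16, adjusted p = 0.0173). The first of these calls held in each alternative fit run on transcripts, and so did the TAC call. The call between knockout and TAC was lost without knockout replicate 1 (adjusted p = 0.056), knockout replicate 3 (0.067), TAC replicate 1 (0.0757) or TAC replicate 3 (0.0691), with log2 fold changes of 1.03 to 1.13. It was also lost with a replicate block (1.11, adjusted p = 0.0929) and without control replicate 2 and knockout replicate 3 together (1.08, adjusted p = 0.102).

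**Figure D5:**
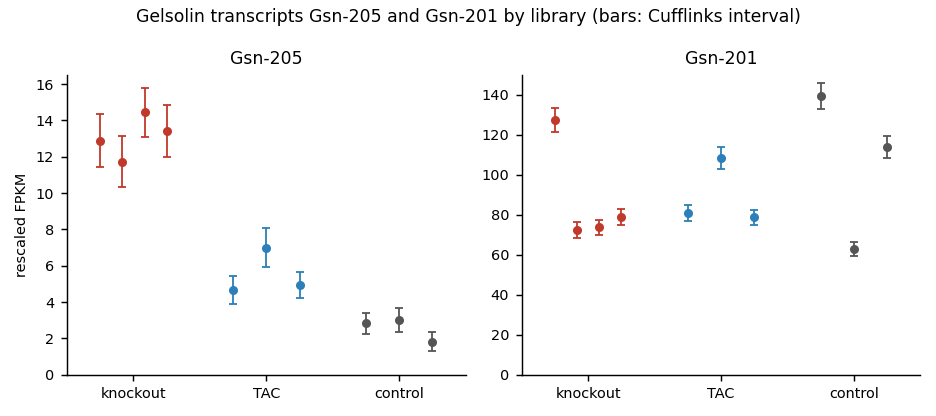
Rescaled FPKM of Gsn-205 and Gsn-201 in each library with the interval listed by Cufflinks, for knockout, TAC and control from left to right. Gsn-205 is at 11.7 to 14.4 FPKM in knockout, 4.68 to 7.0 FPKM in TAC and 1.82 to 3.03 FPKM in control libraries, while the groups of Gsn-201 overlap.

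Gsn-201 had 127, 72.4, 73.7 and 79.0 FPKM in knockout, 81.0, 109 and 78.8 FPKM in TAC and 139, 62.9 and 114 FPKM in control libraries, and did not pass (log2 fold changes -0.22 and -0.18). Gsn-206, a shorter transcript that starts at position 35256396, in the same first exon as Gsn-205, had 3.03, 2.03, 4.26 and 0.00343 FPKM in knockout, 2.76, 4.12 and 2.32 FPKM in TAC and 3.98, 1.14 and 8.24 FPKM in control libraries. Its groups overlapped widely and it did not pass (log2 fold changes -0.70, 95% interval -2.01 to 0.60, in knockout and -0.21, -1.60 to 1.19, in TAC), so the values of Gsn-205 do not stand for all transcripts from the upstream start. The division of reads between transcripts that share exons is an estimate by Cufflinks. Of 43 member transcripts tested, 15 rose and 1 fell in knockout, against 14.6% of all transcripts called, and 13 rose and 1 fell in TAC, against 10.1%. Without control replicate 2 and knockout replicate 3 together, 10 and 11 were called. Transcripts of genes called as a whole made up the rest of both counts beside Gsn-205. Gsn-205 was the 1 member transcript called between knockout and TAC, against 0.956% of all transcripts.

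The calcium-binding proteins S100a4 and S100a6 are EF-hand proteins found in fibroblasts and other cells. S100a6 had 13.3, 19.6, 9.25 and 12.3 FPKM in knockout, 21.7, 18.4 and 18.6 FPKM in TAC and 10.9, 9.67 and 10.5 FPKM in control libraries. The TAC libraries lay above all controls and the knockout libraries overlapped them. S100a6 rose in TAC (log2 fold change 0.85, SE 0.20, adjusted p = 0.0137 by limma), a call lost without TAC replicate 1 (adjusted p = 0.0504). In knockout its log2 fold change was 0.32 (95% interval -0.08 to 0.72), which did not pass. The difference between knockout and TAC was -0.53 (-0.94 to -0.13) and did not pass (adjusted p = 0.149). S100a4 did not pass (0.32 and 0.46).

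Among the 5 pericyte genes, 2 rose in each comparison, where 10.6% of all genes rose in knockout and 8.08% in TAC. Cspg4 (chr9:56865104-56899870, + strand), the proteoglycan NG2 on the pericyte surface, had 5.11, 6.73, 6.39 and 6.02 FPKM in knockout, 6.85, 6.33 and 7.49 FPKM in TAC and 2.51, 2.2 and 2.21 FPKM in control libraries. The groups were far apart beside their spread (6.06 ± 0.70 in knockout, SD, n = 4, and 6.89 ± 0.58 in TAC against 2.31 ± 0.18 in control, SD, n = 3 each). The log2 fold changes were 1.09 (SE 0.11, adjusted p = 6.76e-05 by limma) and 1.25 (SE 0.11, adjusted p = 7.33e-05). Mcam, the adhesion molecule CD146 of pericytes and endothelium, had 6.26, 6.48, 5.75 and 6.69 FPKM in knockout, 6.30, 4.75 and 6.87 FPKM in TAC and 2.78, 3.45 and 4.05 FPKM in control libraries. It did not overlap with the controls either (log2 fold changes 0.73 and 0.65, adjusted p = 0.00288 and 0.00995).

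The other 3 pericyte genes did not follow. Pdgfrb, the receptor by which pericytes are recruited to vessels, had 4.52 to 6.31 FPKM in knockout, 5.17 to 5.75 FPKM in TAC and 3.94 to 5.37 FPKM in control libraries (log2 differences 0.13, 95% interval -0.18 to 0.43, and 0.16, -0.17 to 0.48). Notch3, a receptor of mural cells, differed by 0.14 (-0.14 to 0.42) and 0.15 (-0.15 to 0.45). Rgs5, a regulator of G protein signalling and the highest pericyte gene, had 39.0, 23.4, 26.3 and 34.0 FPKM in knockout, 32.1, 28.1 and 38.7 FPKM in TAC and 41.8, 35.6 and 51.5 FPKM in control libraries. The groups overlapped, and the log2 fold changes of -0.48 and -0.37 did not pass (adjusted p = 0.0869 and 0.239). Without knockout replicate 1 the knockout value of Rgs5 passed (-0.61, adjusted p = 0.0396).

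The smooth muscle genes that were tested did not pass in either comparison. Tagln, transgelin, an actin-binding protein, had 2.1, 3.03, 2.54 and 1.78 FPKM in knockout, 2.28, 1.62 and 3.32 FPKM in TAC and 0.623, 2.15 and 6.24 FPKM in control libraries. The widest spread was within the controls, where replicate 3 was highest for Tagln and for Mylk, myosin light chain kinase (2.02 FPKM against 0.948 and 0.790 FPKM in the other controls). Log2 fold changes were 0.00 and 0.00 for Tagln and -0.11 and -0.21 for Mylk. Cnn1, calponin, was not tested and stayed at 0.280 to 0.490 FPKM in knockout, 0.350 to 0.651 FPKM in TAC and 0.0930 to 0.530 FPKM in control libraries.

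Between knockout and TAC, none of the 27 members was called by limma, against 3.28% of all genes, and 2 had an unadjusted p under 0.05, Ogn and S100a6. No member had all knockout libraries above all TAC libraries, against 8.43% of all genes, and 1 had all below, against 9.64%. That member was Ogn (log2 difference -0.36, 95% interval -0.68 to -0.04, adjusted p = 0.224). For other members that rose against control the intervals of the difference between knockout and TAC were -0.39 to 0.25 for Bgn, -0.47 to 0.14 for Fstl1, -0.50 to 0.31 for Meox1 and -0.39 to 0.07 for Cspg4 on the log2 scale. That of Mcam was -0.21 to 0.36. The intervals of Pi16 (-0.77 to 0.41), Fbln2 (-0.78 to 0.05), Mgp (-0.21 to 0.87) and Serpinf1 (-0.48 to 0.77) were wider. Without knockout replicate 2, S100a6 passed between knockout and TAC (-0.71, adjusted p = 0.0309).

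Genes outside the module were listed for the same cell types. These lists too were drawn up with earlier results of these data known, so their counts are not independent support. Of 15 tested further fibroblast genes, 12 rose in knockout and 10 in TAC, and none fell, where 10.6% and 8.08% of all genes rose. They summed to 216, 198, 161 and 228 FPKM in knockout, 215, 236 and 196 FPKM in TAC and 70.0, 47.9 and 88.1 FPKM in control libraries, with no overlap between either group and control. Periostin (Postn), a matricellular protein of activated fibroblasts, had 36.3, 35.2, 27.6 and 38.0 FPKM in knockout, 43.1, 50.9 and 53.2 FPKM in TAC and 3.84, 4.11 and 5.69 FPKM in control libraries. Its log2 fold changes were 2.67 and 3.18 (adjusted p = 1.55e-06 and 1.37e-06 by limma). Comp, a cartilage matrix protein, rose by 2.28 and 1.73, and was the 1 gene of this list that was higher in knockout than in TAC (log2 fold change 0.55, adjusted p = 0.0333). The collagen I genes rose by 1.61 and 1.81 (Col1a1) and by 1.41 and 1.39 (Col1a2) on the log2 scale. Clec3b, Medag and Htra3 did not pass in either comparison, and Cd248 and Mmp2 did not pass in TAC.

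The further pericyte and smooth muscle genes were tested for 16 genes. None rose in either comparison, 5 fell in knockout (Abcc9, Acta2, Smtn, Steap4 and Ednra) and 3 in TAC (Abcc9, Acta2 and Smtn), where 10.2% and 7.37% of all genes fell. Acta2, smooth muscle actin, had 10.2, 10.2, 12.1 and 12.0 FPKM in knockout, 15.5, 18.8 and 9.92 FPKM in TAC and 23.3, 35.1 and 35.0 FPKM in control libraries. All knockout and TAC libraries were below all controls (log2 fold changes -1.39 and -1.05, adjusted p = 0.000667 and 0.0073 by limma). Abcc9, a subunit of potassium channels in pericytes and also in myocytes, fell by 1.37 and 0.98 on the log2 scale, and Smtn, smoothelin, by 0.53 and 0.77. The highest level in any library was 73.4 FPKM for Abcc9, 53.5 for Smtn, 35.1 for Acta2, 17.8 for Ednra and 4.44 for Steap4. The smooth muscle members Tagln and Cnn1 reached at most 6.24 and 0.651 FPKM. Which cells the transcripts that fell came from was not tested. Of 11 tested ligands and regulators of the member receptors and smooth muscle genes, none was called in either comparison with control (3 and 2 at an unadjusted p under 0.05). Those with the smallest adjusted p were Myocd, a co-activator of smooth muscle genes, in knockout (log2 fold change 0.44, adjusted p = 0.0806) and the growth factor Pdgfa in TAC (-0.41, adjusted p = 0.0648).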

How the data were processed

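RNA of isolated cardiac myocytes was sequenced in 10 libraries, grouped by title into CTCF knockout, TAC and control; each carries its own mouse number, and p-values measure the spread between these libraries. The labels name polyA RNA, whereas the protocol describes removal of ribosomal RNA, and a stranded kit. Per the submitters' processing notes, the build was mm10 and the tools were Cufflinks 2.2.1 with Cuffdiff, Bowtie2 and TopHat2 2.1.0, with no roles given. The deposited files hold FPKM per transcript, made by the authors with Cufflinks and listed within a text column, with other attributes; the deposited score column was not used. FPKM are not counts, so tools for counts were not used, and depth is unknown.

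Transcript FPKM was summed by gene ID (109869 transcripts). Left out were gene IDs with no transcript of 300 nt or longer. Also left out were 22 that were 0 in at least 1 library and whose levels above 0 had a median of at least 100 FPKM. Each library was divided by a median-of-ratios factor (0.912 to 1.10). Values printed are rescaled FPKM. Genes with a mean of at least 1 were tested as log2(FPKM + 1) with limma 3.58.1 in R 4.3.3, all libraries in 1 fit with a variance trend; p-values were two-sided and adjusted by Benjamini and Hochberg over all tested genes, or over all tested transcripts. The procedure was tested on simulated data. Gene positions and transcripts came from GENCODE vM21 and upstream sequences from RefSeq, both on GRCm38.

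All 32 members are named; from the other lists, up to 4 genes with the smallest adjusted p in each comparison with control, and those needed to state a small count. Members and lists were chosen with earlier results of these data known. Alternatives were another pseudocount, filter, scaling, fit or transcript choice, a sex term, a replicate block, and leaving out each library. The ratios to Dcn, and leaving out control replicate 2 with knockout replicate 3 were added after the data were seen.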

Additional observations from a re-analysis of the deposited data

Results flagged for a closer look

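In knockout libraries, 5 levels stood far from the rest of their group, out of 83 groups of 4 libraries checked; chance flags about 1 group in 20. Pdgfra was 2.12 FPKM in knockout replicate 3, against 3.17 FPKM in the next library. Gsn was 144 FPKM in knockout replicate 1, against 92.8 FPKM in the next, and its transcript Gsn-201 was 127 FPKM there, against 79.0 FPKM. A transcript of S100a4 was 3.09 FPKM in knockout replicate 1, against 1.99 FPKM, and the sum of the actin- and calcium-binding members was 160 FPKM, against 108 FPKM. The 4 high values come from 1 library, and Gsn makes up most of that sum. The transcript Gsn-205 differed between the knockout and TAC responses, by 1.12 on the log2 scale in the direct comparison of knockout with TAC.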

How the results depend on the processing

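No called member changed direction in those of the 22 alternative fits of each comparison in which it was tested (Meox1 in 21). Leaving out 1 library at a time gave 9 to 11 members called in knockout against control, 9 to 11 in TAC against control and 0 to 1 between knockout and TAC; the numbers of member transcripts called were 12 to 17, 9 to 15 and 0 to 1, and of all genes 1687 to 2326, 1239 to 1661 and 133 to 448. Without control replicate 2 and knockout replicate 3, all genes called were 1281, 1110 and 109, and member transcripts 10, 11 and 0. A mean of at least 5 FPKM left 1487 and 1167 genes called against control, and a fit of the 2 groups alone 1152 in TAC; fewer genes or libraries enter these fits. Between knockout and TAC, no filter gave 195 genes and a sex term 233; the cause was not tested. Pi16 and Mgp in knockout were lost with no filter (adjusted p = 0.0501 and 0.0692), Mcam in both comparisons with the top transcript only (0.0695 and 0.1), and S100a6 in TAC with either (0.0541 and 0.0979). Without Gsn, the highest member, the mean summed level was 398 FPKM in knockout, 399 FPKM in TAC and 312 FPKM in control, against 502, 498 and 425 FPKM. Quantile normalization reversed Mb in knockout against control, to 0.30.

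Same-numbered libraries were not treated as paired. Correlations of their deviations ran from -0.36 to 0.33, and those of differently numbered libraries from -0.35 to 0.46. With 3 or 4 libraries a group, such correlations cannot exclude a shared batch. A replicate block, in which knockout replicate 4 has no partner, gave 10, 10 and 0 members, 12, 12 and 0 member transcripts and 200 genes between knockout and TAC.

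The unknown depth and 3 or 4 libraries a group limit what can be called among members near 1 FPKM.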

Other observations

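Over all tested genes 20.8% were called in knockout against control (10.6% higher and 10.2% lower). In TAC against control 15.5% were called (8.08% higher and 7.37% lower), and the counts of the lists below stand beside these shares. Of 19 endothelial genes, 4 rose in knockout (Emcn, Eng, Plvap and Vwf), where 10.6% of all genes rose. In TAC 1 rose (Plvap), where 8.08% of all genes rose. Plvap, a protein of endothelial diaphragms, had 4.54, 6.09, 2.5 and 4.53 FPKM in knockout, 5.32, 3.49 and 7.76 FPKM in TAC and 1.24, 1.34 and 1.07 FPKM in control libraries, with no overlap between either group and control. Of 18 macrophage and leukocyte genes, Adgre1, Cd52, Coro1a and Ctss rose and Cd163 fell in knockout, and C1qc, Coro1a and Ctss rose in TAC. Their list summed to 102 to 167 FPKM in knockout, 141 to 161 FPKM in TAC and 87.8 to 123 FPKM in control libraries.

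Epicardial and mesothelial genes (0 of 5 called in either comparison with control by limma, also 0 at an unadjusted p under 0.05) summed to 5.09 to 11.8 FPKM in knockout, 19.8, 1.97 and 13.3 FPKM in TAC and 6.33 to 9.11 FPKM in control libraries, so TAC replicate 2 was the lowest of all and TAC replicate 1 the highest. Erythroid genes summed to 130 to 633 FPKM in knockout, 952 to 1677 FPKM in TAC and 288 to 1198 FPKM in control libraries. None of 5 was called against control (0 and 4 at an unadjusted p under 0.05), and 3 were lower in knockout than in TAC (Hba-a1, Hba-a2 and Alas2). Of 3 tested liver genes, Alb fell in knockout and Alb and Apoa2 in TAC. No lymphocyte, Schwann cell or adipocyte gene reached the level for testing, and these lists summed to at most 1.49, 1.35 and 0.334 FPKM in any library. Of 13 cardiac myocyte genes, Actn2 and Mybpc3 rose and Myh6, Tnni3, Ryr2 and Pln fell in knockout, and Actn2 and Mybpc3 rose and Tnni3 and Pln fell in TAC.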
